A study of Homo sapiens with 2 samples.

Results

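SOX9-positive cells that also carried transcripts of TM4SF1, a membrane protein of the L6 family, and ANXA2, a calcium-dependent membrane-binding annexin, were examined among enhanced beta clusters (eBCs), aggregates of stem cell-derived beta cells, of the human iSOX9KO line. The rule asked for at least 2000 unique molecular identifiers (UMIs, 1 per captured transcript) and under 20% of UMIs from mitochondrially encoded genes. It then asked for at least 1 UMI of SOX9, at least 1 of TM4SF1 and at least 3 of ANXA2. It took 347 of the 57018 cells that passed the depth and mitochondrial limits, out of 62105 barcodes in both matrices. Of these, 224 of 27668 cells carried the label no DOX and 123 of 29350 the label DOX. The counts of SOX9, TM4SF1 and ANXA2 chose the cells, so their levels are a description. The data met the name duct-like only in part, and the cells are called the gated cells.

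Both libraries came from 1 clone of the MEL-1 INS-GFP human embryonic stem cell line, an established line that reports insulin transcription by green fluorescence. The clone carries a doxycycline (DOX)-inducible Cas9 and guides against SOX9 at the AAVS1 site, so the untreated cells carry the cassette and the guides too. The group labelled DOX received doxycycline at 2 ug/ml from day 12 of differentiation, and the group labelled no DOX did not. Strongly fluorescent cells were sorted and reaggregated after DOX had begun, and live cells of the dissociated clusters were then loaded. With 1 library per condition no difference between conditions can be tested, and the 95% intervals cover counting error alone. Wherever a pair of values is given, the first belongs to the library labelled no DOX and the second to the library labelled DOX.

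In the developing pancreas, SOX9 is a transcription factor of the progenitor epithelium that is later kept in duct and centroacinar cells and lost as endocrine cells form. Notch receptors are activated by ligands on neighbouring cells, and their cleaved part joins RBPJ on DNA to switch on HES and HEY repressors, which hold back the endocrine factor NEUROG3. The mechanosensitive factors YAP1 and WWTR1 (TAZ) act with TEAD proteins on targets such as CYR61, CTGF and ANKRD1 and are low in islet cells. Duct epithelium is recognised by keratins and by the chloride channel CFTR.

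The promoters of HES1, HES4 and HES5 are shown first, because all of these Notch targets were high in the gated cells. The windows run from 250 bases before to 50 after the RefSeq start on GRCh38.p14, read in the direction of transcription. Capitals mark TGGGAA, the core of the RBPJ motif, or TTCCCA, the same letters on the other strand.
HES1 promoter (chr3:194135898-194136197, plus strand): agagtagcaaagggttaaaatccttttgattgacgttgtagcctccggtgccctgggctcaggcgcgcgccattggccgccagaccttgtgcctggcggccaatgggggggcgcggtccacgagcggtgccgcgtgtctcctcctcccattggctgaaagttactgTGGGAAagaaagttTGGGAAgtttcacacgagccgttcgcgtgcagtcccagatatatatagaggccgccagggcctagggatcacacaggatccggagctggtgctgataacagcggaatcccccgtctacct
HES4 promoter (chr1:1000048-1000347, minus strand): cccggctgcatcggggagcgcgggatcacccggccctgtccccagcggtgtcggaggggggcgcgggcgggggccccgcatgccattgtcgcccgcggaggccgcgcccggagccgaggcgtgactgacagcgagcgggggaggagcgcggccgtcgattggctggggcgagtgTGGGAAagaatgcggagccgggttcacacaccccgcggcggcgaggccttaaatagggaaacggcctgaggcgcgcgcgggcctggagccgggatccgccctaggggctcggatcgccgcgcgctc
HES5 promoter (chr1:2530214-2530513, minus strand): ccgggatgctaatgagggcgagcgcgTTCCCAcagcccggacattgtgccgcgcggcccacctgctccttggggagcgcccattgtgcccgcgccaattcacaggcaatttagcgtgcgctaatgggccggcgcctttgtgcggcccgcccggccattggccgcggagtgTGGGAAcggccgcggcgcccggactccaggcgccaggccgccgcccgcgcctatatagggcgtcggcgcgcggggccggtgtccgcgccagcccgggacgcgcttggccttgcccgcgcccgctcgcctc
The HES1 window held 2 matches on the same strand, that of HES4 held 1, and that of HES5 held 2 on opposite strands. Of 35116 RefSeq promoters of the same length, 24.0% held at least 1 match and 3.80% at least 2. A match describes letters in the window and not binding.

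SOX9 (ENSG00000125398, chr17:72121020-72126416 on GRCh38), the gene the guides target, had no lower level under the label DOX. Over all cells it stood at 3.23 CPM (UMIs per 1000000, 95% interval 3.08 to 3.38) and 3.95 CPM (3.78 to 4.12), a log2 ratio of DOX over no DOX of 0.29 (0.20 to 0.38). In the 252 and 138 cells chosen by TM4SF1 and ANXA2 with no demand on SOX9, it stood at 144 CPM (135 to 154) and 193 CPM (178 to 209), a log2 ratio of 0.42 (0.27 to 0.57). Without the cells that held 5% or more hormone UMIs this ratio was 0.18 (0.00 to 0.36), an interval that reached 0. In all cells outside the gate the ratio was 0.82 (95% interval 0.70 to 0.94). At least 1 SOX9 UMI was found in 88.9% (84.3% to 92.5%) and 89.1% (82.7% to 93.8%) of the cells chosen without SOX9. In insulin-rich cells, those with INS at 10% of UMIs or more, a SOX9 UMI was found in 1.22% and 0.98%, at 0.768 and 0.862 CPM and median depths of 19225.5 and 16586.5 UMIs. Since the targeted gene did not follow the label, each library is called by its label. Small deletions by Cas9 need not lower the number of transcripts counted, and with exchanged labels each ratio of DOX over no DOX would turn, so the SOX9 counts do not check the labels. EPS8L1, a gene listed as a neighbour of the cassette, stood at 13.4 and 20.1 against 1.84 and 9.42 CPM, so it lay higher under the label DOX in both groups of cells. Of the other genes on that list, PPP1R12C stood at 11.7 and 19.8 against 10.1 and 17.6 CPM, so it too lay higher under the label DOX in both groups. RDH13 stood at 6.71 and 6.25 against 3.20 and 3.93 CPM, TNNI3 at 2.58 and 2.08 against 2.00 and 2.20 CPM and TNNT1 at 0.516 and 0.347 against 1.24 and 1.70 CPM. Under the label DOX, RDH13, TNNI3 and TNNT1 were each lower in the gated cells and higher in other cells.

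The matrices held 30288 and 31817 barcodes, and 369 barcode sequences occurred in both, 3 and 1 of them among the gated cells. The gated cells made up 0.810% (95% Clopper-Pearson interval 0.707% to 0.922%) and 0.419% (0.348% to 0.500%) of the cells. Within them SOX9 had a median of 3 and 4 UMIs and reached 16 and 33, TM4SF1 had a median of 16 and 13 and ANXA2 of 9 in each library. Their median depth of 21960 and 20978 UMIs exceeded the 16916 and 15098 of other cells. Applied to counts thinned to 5000 UMIs per cell, the gate took 0.222% and 0.136%, in the same order.

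The gated cells were of 2 kinds by their hormone content. INS, GCG, SST, PPY and GHRL, the 5 hormone genes, together took under 2% of the UMIs in 123 and 78 gated cells, 2% to 5% in 14 and 8, and 5% or more in 87 and 37. The hormone-high cells, at 5% or more, were 38.8% (32.4% to 45.6%) and 30.1% (22.1% to 39.0%) of the gated cells. They were deep, with medians of 35802 and 33298 UMIs, and Scrublet, which simulates doublets within each library, called 84 of 87 and 30 of 37 of them. The hormone-low gated cells, 137 and 86, had medians of 16232 and 17294.5 UMIs, and Scrublet called 29 (21.2%) and 15 (17.4%) of them, against 27.7% of other cells in each library. The hormone-high cells lay between the hormone-low gated cells and other cells in KRT18, the epithelial keratin, at 1511 and 1693 CPM against 2791 and 2837 and 146 and 151 CPM. Values are therefore given for all gated cells and, for part of the results, for the hormone-low ones.

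**Figure D1:**
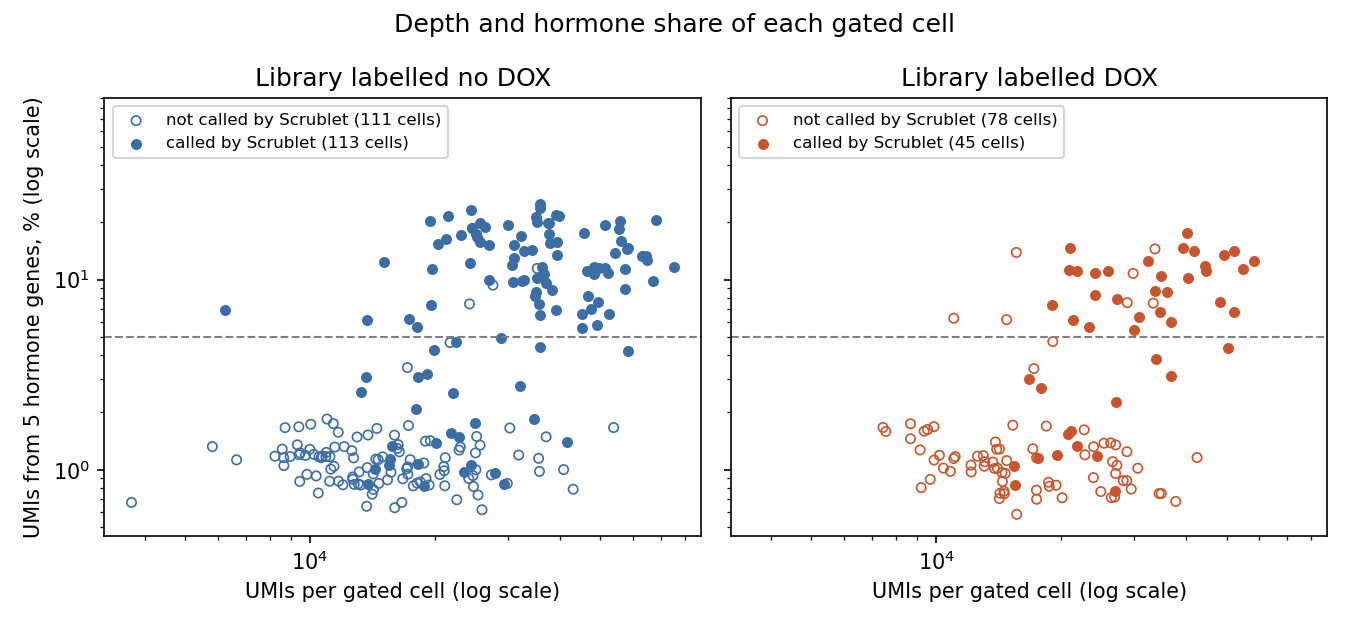
Each point is 1 gated cell, with its UMIs on the x axis and the percent of its UMIs from the 5 hormone genes on the y axis, both on log scales, for the 224 cells labelled no DOX (left) and the 123 labelled DOX (right). Filled points were called by Scrublet, and they make up 84 of 87 and 30 of 37 of the cells above the dashed line at 5%.

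The hormone UMIs left in the hormone-low cells were mostly INS. INS made up 92.0% and 91.9% of their INS, SST and GCG UMIs and SST 6.68% and 6.72%, whereas in other cells INS made up 81.9% and 84.4% and SST 15.8% and 12.9%. INS, the insulin gene, stood at 13657 and 12758 CPM in the hormone-low gated cells, against 151127 and 146299 CPM in other cells. Whether these UMIs came from free RNA was not tested.

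Across the transcriptome the gated cells had more genes above than below other cells. Of 6828 genes with at least 20 CPM in 1 of the groups, 747 (10.9%) were at least 2-fold higher in the gated cells than in other cells of the same library, in both libraries, and 227 (3.32%) at least 2-fold lower. The median log2 ratio over these genes was 0.07. For the hormone-low gated cells the counts were 1246 (17.2%) and 714 (9.88%) of 7224, with a median of 0.18. Since transcript counts chose the cells, these counts describe size and are no test. A gene that reached 20 CPM in the gated cells alone had to lie higher there, so the counts of listed genes are a description as well.

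The duct-like markers were met in part. Of 15 such markers, 12 were at least 2-fold higher in the gated cells in each library, SOX9, TM4SF1 and ANXA2 of the rule among them. VIM, an intermediate filament of progenitors and mesenchyme, stood at 693 and 432 CPM, against 9.45 and 9.82 CPM in other cells. IFITM3, an interferon-induced membrane protein, stood at 252 and 305 CPM, against 2.28 and 4.70 CPM in other cells. The partner keratins KRT8 and KRT18 stood at 1458 and 1717 against 220.3 and 222 CPM and at 2064 and 2348 against 146 and 151 CPM. These genes were thus many-fold higher in the gated cells of each library. CFTR stood at 56.98 and 77.1 CPM, against 0.246 and 0.476 CPM in other cells and SPP1 (osteopontin) at 33.2 and 54.2 against 0.994 and 0.674 CPM.

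The classical duct keratins did not mark the gated cells. KRT7 stood at 2.75 and 1.04 CPM, against 3.89 and 5.00 CPM in other cells. KRT19 stood at 224 and 243 CPM, against 207 and 164 CPM in other cells, and EPCAM, the epithelial adhesion molecule, at 281 and 325 against 369 and 383 CPM. Neither KRT19 nor EPCAM differed 2-fold. Of the 32 genes of a wider duct epithelium list, 18 reached 20 CPM in 1 group, and 9 of them were at least 2-fold higher and 1 lower in both libraries, with a median log2 ratio of 1.12. Over all counted genes 10.9% were higher and 3.32% lower. SLC4A4, the sodium bicarbonate cotransporter of duct cells, was among the higher ones at 77.8 and 124 against 3.59 and 3.39 CPM, and TFF3, a secreted trefoil peptide, was the lower one at 38.4 and 39.9 against 85.9 and 98.9 CPM. The water channel genes AQP1 and AQP5, known from ducts, stood at 0.344 and 0.347 CPM and at 0.689 and 0 CPM.

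By the size of the ratio, leaving the genes of the rule aside, the leading genes included CCL2, TTYH1, PLAT, FOXC1, MCAM, ANKRD1, CXCL5, IL32, RP11-277P12.20, CFTR and NFIB, which are not a duct set. CCL2, a monocyte-attracting chemokine, stood at 216 and 385 CPM, against 0.423 and 0.917 CPM in other cells, log2 ratios of 8.99 and 8.71. CXCL5, a neutrophil-attracting chemokine, stood at 76.95 and 115 against 0.380 and 0.312 CPM, and PLAT, the tissue plasminogen activator, at 119.99 and 102 against 0.396 and 0.382 CPM. The forkhead factor FOXC1 stood at 74.7 and 57.98 against 0.262 and 0.220 CPM, and MCAM (CD146), an adhesion molecule of vessel wall and mesenchymal cells, at 202 and 145 against 0.743 and 0.557 CPM. The ratios of all genes just named were larger in the hormone-low cells, with 8.74 and 8.41 in place of 8.15 and 8.05 for FOXC1 as an example.

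**Figure D2:**
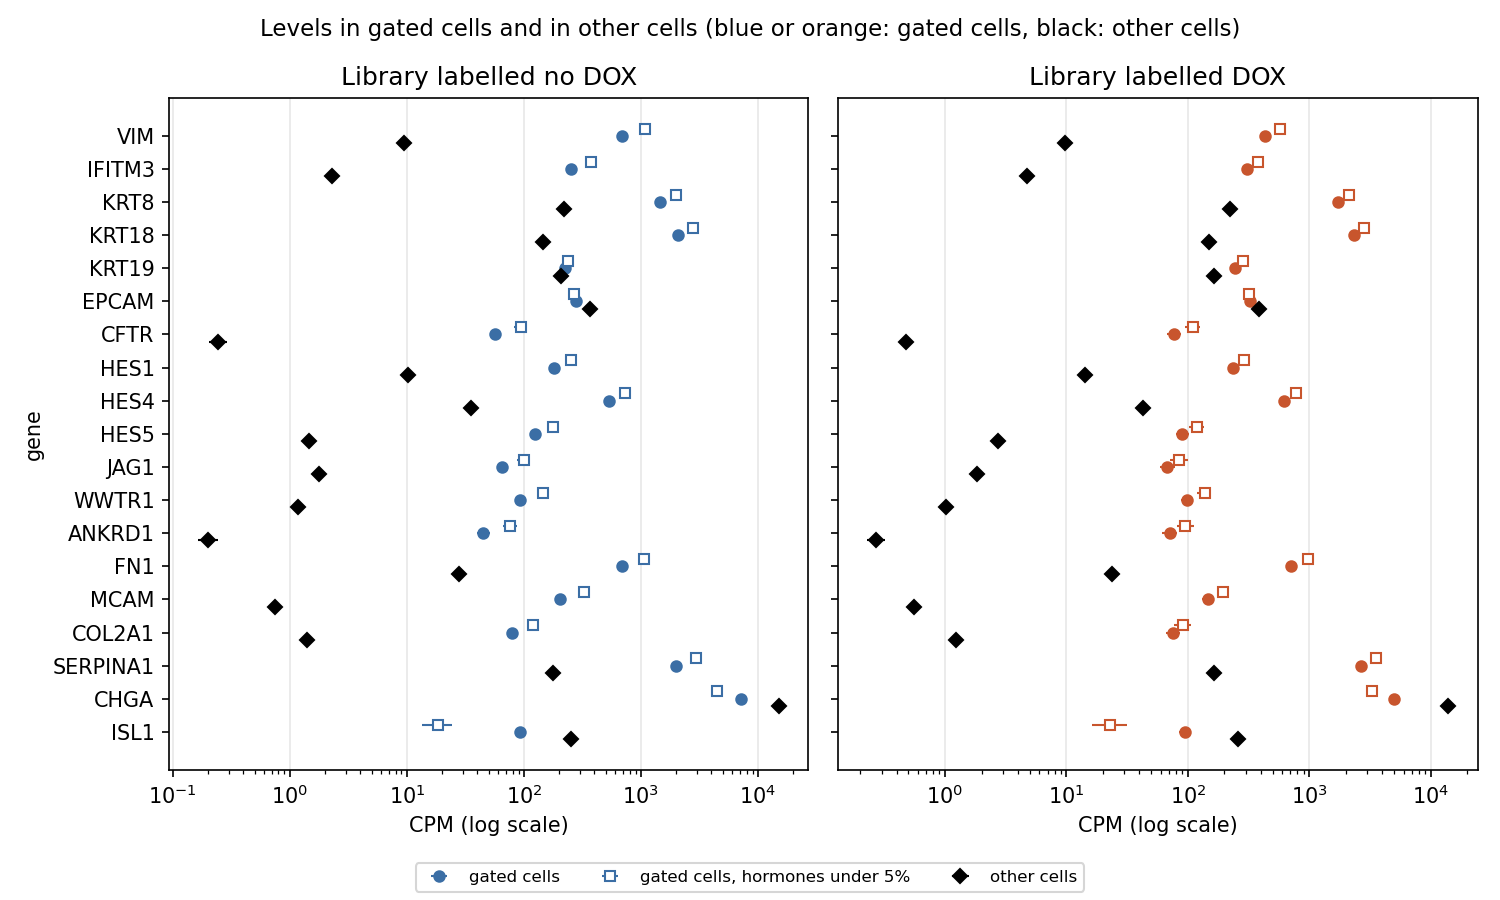
CPM on a log scale (x axis) of 19 genes (y axis) in all gated cells (filled circles), in the hormone-low gated cells (open squares) and in other cells (black diamonds), with 95% Poisson intervals for counting error, 1 panel per library. KRT19 and EPCAM lie near their level in other cells, CHGA and ISL1 lie below it, and the other 15 genes lie above it.

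Notch pathway genes were high in the gated cells. Of 25 genes listed, 12 were counted, 11 were at least 2-fold higher in both libraries and 0 lower, with a median log2 ratio of 4.64 against 0.07 over all genes. The share of all counted genes at least 2-fold higher was 10.9%. Of the genes named below as higher, only RBPJ and HES4 reached 20 CPM in other cells too, so the count is a description. The receptors NOTCH1 and NOTCH2 stood at 37.5 and 39.6 against 0.592 and 0.870 CPM and at 28.4 and 35.4 against 0.339 and 0.578 CPM. Among ligands JAG1 stood at 65.1 and 67.7 CPM, against 1.77 and 1.84 CPM in other cells. The other ligands were not high: DLL3 stood at 7.75 and 5.21 against 18.1 and 18.4 CPM, DLL4 at 4.30 and 2.78 against 9.57 and 9.35 CPM, DLL1 at 2.07 and 1.04 CPM and JAG2 at 1.38 and 3.82 CPM. RBPJ, the DNA-binding partner of cleaved Notch, stood at 104 and 144 against 43.99 and 44.7 CPM.

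Of the repressors downstream, HES1 (chr3:194136148-194138732), whose promoter held 2 motif matches, stood at 181 CPM (95% interval 169.99 to 192) and 234 CPM (95% interval 217 to 252) in the gated cells and at 10.2 and 14.3 CPM in other cells. HES4 (chr1:998962-1000172) stood at 529 and 617 against 35.4 and 43.1 CPM, log2 ratios of 3.90 and 3.84. HES5 (chr1:2528745-2530263) stood at 126 and 89.9 against 1.46 and 2.76 CPM, log2 ratios of 6.43 and 5.03. The HES genes thus lay far above other cells in each library. HEY1, another repressor, stood at 118 and 104 against 2.05 and 2.37 CPM, and NRARP, a feedback regulator of Notch, at 19.97 and 21.2 against 0.272 and 0.533 CPM. NEUROG3, which HES1 represses, had 2 UMIs and 0 UMIs in the gated cells. The 3 UMIs that stand for a count of 0 in ratios equal 1.04 CPM in the gated cells labelled DOX. Whether the low NEUROG3 count is tied to HES1 was not tested.

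Genes of the YAP and TEAD pathway formed another high group. Of 18 genes listed, 8 were counted, 7 were at least 2-fold higher in both libraries and 0 lower, with a median log2 ratio of 6.16, beside 10.9% of all counted genes higher. Apart from TEAD1, the genes named below reached 20 CPM in the gated cells alone. They therefore had to lie higher there, and the count and median are a description. WWTR1 (TAZ) stood at 93.3 and 98.6 CPM, against 1.18 and 1.03 CPM in other cells, and YAP1 at 20.5 and 19.8 against 0.287 and 0.306 CPM. Of the DNA-binding partners TEAD2 stood at 18.2 and 20.5 against 0.216 and 0.304 CPM, and TEAD1 at 59.7 and 46.9 against 50.5 and 44 CPM, so TEAD1 was the member that did not separate the cells. Of the targets, CYR61 stood at 30.8 and 42.01 against 0.115 and 0.165 CPM, CTGF at 28.9 and 50 against 2.28 and 1.31 CPM and ANKRD1 at 45.1 and 70.8 against 0.201 and 0.272 CPM.

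Basement membrane and integrin genes followed, with 9 of 11 counted genes at least 2-fold higher, 0 lower and a median log2 ratio of 3.85, beside 10.9% of all counted genes higher. Of the matrix genes named below, only FN1 reached 20 CPM in other cells too, so the count is a description. Fibronectin (FN1) stood at 686 and 712 CPM, against 27.97 and 23.7 CPM in other cells. The collagen IV chains COL4A1 and COL4A2 stood at 61.97 and 51.4 against 0.493 and 0.457 CPM and at 79.02 and 74.3 against 1.27 and 1.64 CPM, and the laminin chain LAMA1 at 42.2 and 46.9 against 1.98 and 1.74 CPM. Of 12 counted annexin and S100 genes, 6 were at least 2-fold higher, ANXA2 of the rule among them, and 1 lower. S100A10, the binding partner of ANXA2, stood at 402 and 525 against 126 and 120.4 CPM, while ANXA6 was the lower one at 90.4 and 72.2 against 183 and 164 CPM.

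Beside the 10.9% of all counted genes at least 2-fold higher, the following lists held larger or like shares. In the interferon and HLA class I list, 5 of 10 counted genes were at least 2-fold higher and 0 lower, with a median log2 ratio of 1.06. HLA-B, which presents peptides to T cells, stood at 424 and 674 against 35.4 and 38.5 CPM. HLA genes share sequence, and how reads were split between them was not tested. SERPINA1, a secreted protease inhibitor of liver and gut epithelium, stood at 1994 and 2681 against 178 and 163 CPM. EGFR, the epidermal growth factor receptor, stood at 59.7 and 50.3 against 7.65 and 7.95 CPM and was 1 of 2 of 11 counted FGF, EGF and WNT receptor genes at least 2-fold higher, a share near that background. Of 8 counted BMP and TGF-beta response genes 3 were at least 2-fold higher, among them the BMP targets ID2 at 103 and 132 against 36.2 and 37.96 CPM and ID3 at 151 and 103 against 7.97 and 9.11 CPM.

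Markers of other cell types were uneven. Of the neural crest and chondrocyte markers, the cartilage collagen COL2A1 stood at 78.8 and 75.7 against 1.39 and 1.24 CPM and the glial and crest factor SOX10 at 14.6 and 14.6 against 0.0354 and 0.0216 CPM, whereas ACAN, a defining cartilage proteoglycan, was at 0 in both libraries. FOXD3, a crest factor of the wider list, was at 0 too. COL2A1 and COL9A1, known targets of SOX9 in cartilage, were both high, COL9A1 at 24.8 and 29.2 against 0.257 and 0.267 CPM.

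Of a mesenchyme list of 20 genes, 5 were counted and 4 were at least 2-fold higher in both libraries (VIM, SPARC, TAGLN and ACTA2), with a median log2 ratio of 5.83, and of 6.35 in the hormone-low cells. Among all counted genes 10.9% were at least 2-fold higher in the gated cells. SPARC, a matrix protein, stood at 83.1 and 73.3 against 0.275 and 0.849 CPM and TAGLN, an actin-binding protein of smooth muscle, at 161 and 132 against 3.69 and 3.38 CPM. The 8 markers of mesenchyme in the shorter marker set, which lacks VIM, SPARC and TAGLN, summed to 38.9 and 46.5 CPM, against 8.93 and 10.6 CPM in other cells. Of these 8, 4 were at least 2-fold higher in the gated cells of each library (ACTA2, COL1A1, PDGFRA and PDGFRB), 1 was lower and 2 were at 0. The fibrillar collagen COL1A1 stood at 3.79 and 2.78 against 0.704 and 0.757 CPM, while the receptors PDGFRA and PDGFRB rested on 5 and 2 and on 12 and 2 UMIs. ACTA2, a smooth muscle actin, made up 25.3 and 33.7 CPM of that sum, while the stromal genes DCN and LUM were at 0 in both libraries and COL3A1 stood at 0.689 and 1.74 against 4.03 and 4.09 CPM. The 4 endothelial markers summed to 0.861 and 0 CPM, against 3.02 and 3.21 CPM in other cells, with PECAM1 and CDH5 at 0, and the 3 leukocyte markers to 15.5 and 7.64 CPM, against 35.4 and 23.2 CPM in other cells. LIN28A, one of the pluripotency markers, stood at 19.6 and 21.5 against 0.216 and 0.245 CPM, while POU5F1, the defining one, stood at 0.172 and 0 CPM. The 4 hepatic markers summed to 8779.6 and 7507 CPM, against 21674 and 21882 CPM in other cells, and TTR, which islet cells also make, was the main one. The part of these cell types in the levels of the gated cells was not tested.

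Pan-endocrine genes were lower. In all gated cells 13 of 20 counted genes were at least 2-fold lower and 0 higher in both libraries, with a median log2 ratio of -1.23. In the hormone-low cells 19 of 20 were lower, with a median of -2.36. Of all counted genes 3.32% and 9.88% were at least 2-fold lower, in the same order. The LIM factor ISL1 stood at 18.3 and 23.02 CPM in the hormone-low gated cells, against 254 and 258 CPM in other cells. CHGA, the granule protein, stood at 4444 and 3316 against 15246 and 14014 CPM in sums over cells. Per hormone-low gated cell its median was 870 and 802 CPM, its upper quartile 1632 and 1428 CPM and its highest value 41106 and 32232 CPM. The summed level thus lay above the upper quartile of the cells. The lowest ratios of all gated cells were those of IAPP, CDH18, NEFL, RAMP1, TMEM190, NEFM, ISL1 and CYP1A1. In the hormone-low gated cells IAPP, the amyloid peptide of beta cells, stood at 3.99 and 6.66 against 113 and 127 CPM in other cells, and the neurofilament NEFM at 40.3 and 50.3 against 1147 and 942 CPM.

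Factors shared by progenitors and beta cells separated the groups little. Over all counted genes 10.9% were at least 2-fold higher, so the small counts of this paragraph are not read as a result about a list. Of 10 counted progenitor factors 2, GATA6 and TCF7L2, were at least 2-fold higher in both libraries and 0 lower, with a median of 0.24. PDX1, which pancreatic progenitors and beta cells both need, stood at 58.9 and 69.4 against 75.6 and 85.8 CPM, and NKX6-1 at 138 and 149.6 against 89.96 and 96.5 CPM. SR splicing factors, which steer exon choice, had 3 of 13 genes at least 2-fold higher (SRSF3, SRSF4 and SRSF7) and 0 lower, with a median of 0.77. SRSF5 stood at 132 and 169 against 95.6 and 108 CPM, under the 2-fold limit. Primary cilium genes had 0 of 6 counted genes higher and 0 lower, and p53 targets 3 of 13 higher, among them the death receptor TNFRSF10B at 22.7 and 32.6 against 1.44 and 1.41 CPM.

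In all gated cells the shares of the heat shock, immediate early and G1 lists at least 2-fold higher lay near the 10.9% of all counted genes. Of 5 counted SOX family genes 3 were at least 2-fold higher (SOX9 of the rule, SOX4 and SOX6), with the progenitor factor SOX4 at 459 and 525 against 181 and 200.05 CPM. Heat shock genes had 1 of 10 higher, the small chaperone HSPB1 at 112 and 149.99 against 18.5 and 17.3 CPM. Immediate early genes had 1 of 10 higher (IER3), and G1 cyclins and inhibitors 1 of 7 (CCND1). In the hormone-low cells, where 17.2% of counted genes were at least 2-fold higher and 9.88% lower, the counts differed. The heat shock list then had 3 of 10 higher (HSPB1, HSP90AA1 and HSPD1) and the G1 list 4 of 8 (CCND1, CCND2, CCNE1 and CDK4). Of 10 immediate early genes 3 were higher (ATF3, IER3 and KLF6) and 2 lower (JUNB and EGR1). Metallothioneins, from near-identical genes, had 1 of 7 at least 2-fold lower in all gated cells and 7 of 7 in the hormone-low ones, with a median log2 ratio of -2.11. The enterochromaffin-type list, serotonin genes of endocrine cells, had 0 of 5 higher and 0 lower in both libraries, with a median of -0.82. Within it FEV, a factor of serotonin and endocrine progenitor cells, stood at 419 and 202 against 560.1 and 479 CPM.

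Transcripts of dividing cells were frequent. All 19 counted genes of the G2/M list were at least 2-fold higher in the gated cells in both libraries, with a median log2 ratio of 3.27, and 13 of 15 counted S phase genes, with a median of 2.07. For all counted genes this share was 10.9%. The topoisomerase TOP2A stood at 206 and 241 against 19.4 and 19.2 CPM, and MKI67 at 52.5 and 92.01 against 7.60 and 7.69 CPM. The G1 cyclin CCND1 stood at 654 and 705 against 14.9 and 14.9 CPM, and GMNN, an inhibitor of replication licensing, at 489 and 539.9 against 23.9 and 28.3 CPM. The share of cells with at least 3 G2/M UMIs after thinning to 5000 UMIs showed the same. It was 49.8% (43.03% to 56.5%) of 223 and 59.3% (50.1% to 68.1%) of 123 gated cells, against 3.46% of 26340 and 3.16% of 28531 other cells. Near the threshold, at 2 to 4 UMIs, lay 24 and 15 gated cells. In the hormone-low cells the shares were 53.7% (44.9% to 62.3%) and 62.8% (51.7% to 72.98%), and the intervals of both libraries overlapped for all gated cells as well as for these.

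**Figure D3:**
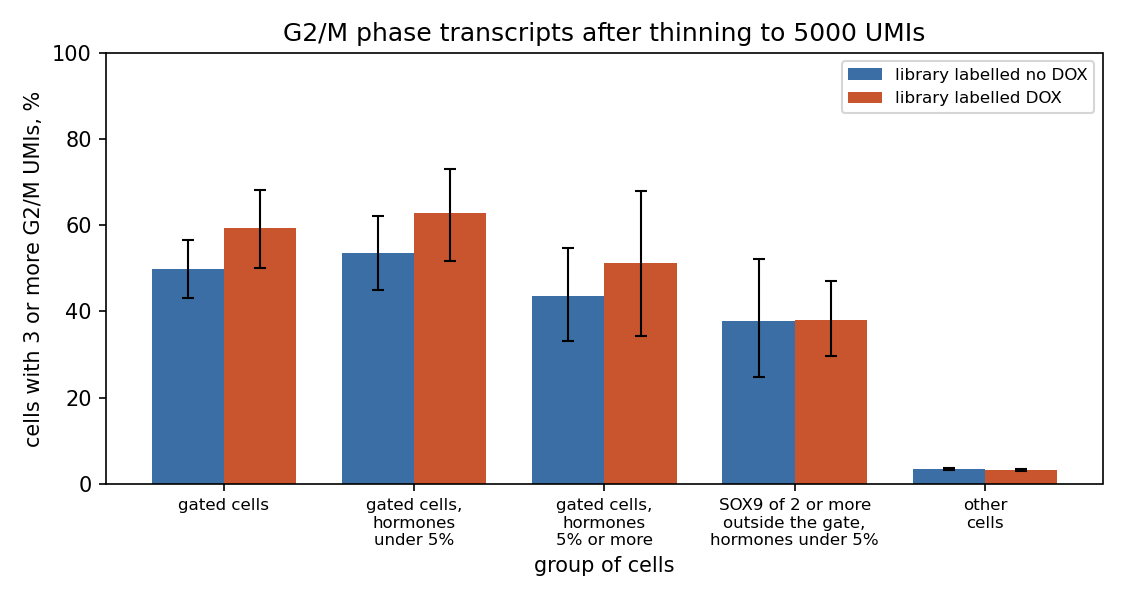
Percent of cells (y axis) with at least 3 UMIs over the G2/M list after thinning to 5000 UMIs, for 5 groups of cells (x axis) and both libraries, with 95% Clopper-Pearson intervals. All gated cells lie at 49.8% and 59.3%, and other cells at 3.46% and 3.16%.

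Cells with transcripts of both endocrine and dividing cells were set beside the gated cells. They were 726 and 745 cells outside the gate with at least 5 CHGA, 2 TOP2A and 1 MKI67 UMIs. Scrublet called 381 and 381 of them, and hormones took a median of 12.03% and 11.03% of their UMIs, from as low as 0.684% and 0.636%, so Scrublet-called and hormone-low cells were among them. CCND1 stood at 22.6 and 33.01 CPM in them, VIM at 27.3 and 31.6 CPM and FN1 at 50.3 and 73.1 CPM, each below the gated cells of its library. HES4 stood at 123 and 179 CPM, between the gated cells and all other cells. SOX9 stood at 7.36 and 22.9 CPM.

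The hormone-low gated cells varied among themselves along a line from epithelial junction genes to MCAM. The claudins CLDN4 and CLDN6 had a Pearson r of 0.51 and 0.68 over the cells, and EPCAM and RAB25, a trafficking GTPase of epithelia, 0.59 and 0.51. EPCAM and MCAM had an r of -0.52 and -0.37, and MCAM and HES5 of 0.32 and 0.32. These values describe 137 and 86 cells, on log2 of depth-scaled counts plus 1, that share a library. KRT18 ranged from 44.5 to 17065 CPM per cell with a median of 1610.4 under no DOX, and from 0 to 13155 with a median of 2457 under DOX. HES5 was at 0 in 80 of 137 and 53 of 86 cells and reached 3140.1 and 2524 CPM, so its level rested on a part of the cells, whereas CCND1 was at 0 in 1 and 0 cells. VIM ranged from 0 to 4479.6 CPM per cell with a median of 1012 under no DOX, and from 0 to 3293 CPM with a median of 581 under DOX.

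A split chosen after seeing the data shows both ends of this line. Cells with a UMI of CLDN4, CLDN6, CLDN7 or RAB25 and none of MCAM after thinning, the junction-only cells, numbered 22 of 136, or 16.2% (10.4% to 23.5%), and 26 of 86, or 30.2% (20.8% to 41.1%). MCAM-only cells, the reverse, numbered 76, or 55.9% (47.1% to 64.4%), and 24, or 27.9% (18.8% to 38.6%). A further 25 and 22 cells had genes of both kinds, and 13 and 14 had none. Scrublet called 7 of the 25 and 4 of the 22 cells with both kinds, and whether these are single cells was not tested. The junction-only cells had median depths of 21960 and 19108.5 UMIs against 14809 and 14284.5 in the MCAM-only cells, and Scrublet called 9 of 22 and 6 of 26 of them against 8 of 76 and 3 of 24. CLDN7 and RAB25 are not particular to these cells: after thinning they had a UMI in 46.2% and 51.9% and in 36.1% and 37.7% of other cells, against 13.2% and 27.9% and 15.4% and 16.3% of the hormone-low gated cells. CHGA stood at 5415 and 3211 CPM in the junction-only cells, against 2681 and 2515 CPM in the MCAM-only cells, log2 ratios of 1.01 and 0.35. These are sums over cells, which few cells can carry. Per hormone-low gated cell the median CHGA level was 870 and 802 CPM and the highest 41106 and 32232 CPM. The part of endocrine transcripts, depth and doublets in the split was not tested.

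**Figure D4:**
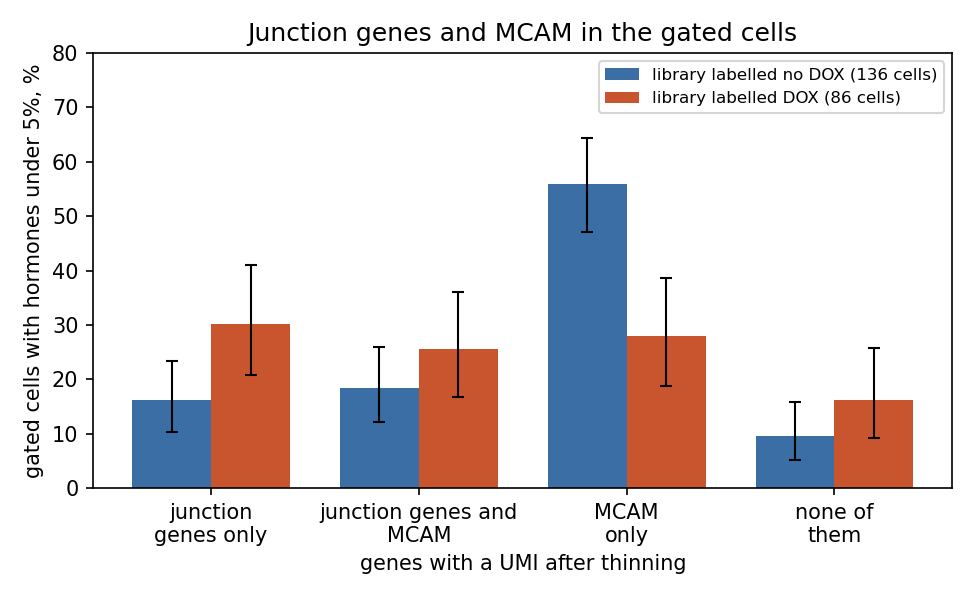
Percent of hormone-low gated cells (y axis) by which of the junction genes and of MCAM had a UMI after thinning (x axis), per library, with 95% Clopper-Pearson intervals. Cells with MCAM alone make up 55.9% under the label no DOX and 27.9% under the label DOX.

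Duct genes lay toward the junction end. KRT19, which did not differ 2-fold between gated and other cells, stood at 459 and 362 CPM in the junction-only cells, against 157 and 148 CPM in the MCAM-only cells. EPCAM stood at 518 and 405 CPM in the junction-only cells, against 146 and 197 CPM, and S100A10 at 1651 and 997 CPM in the junction-only cells, against 259.9 and 156 CPM. All 3 were more than 2-fold apart in each library. CFTR stood at 174 and 153 CPM in the junction-only cells, against 60.6 and 54.5 CPM, log2 ratios of 1.52 and 1.49, and SPP1 at 152 and 70.97 CPM in the junction-only cells, against 11.96 and 10.4 CPM. A single cell held 64 of the 82 SPP1 UMIs of the junction-only cells under the label no DOX.

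HES5, cartilage collagens and part of the mesenchymal genes were higher at the MCAM end. HES5 stood at 25.9 and 85.2 CPM in the junction-only cells, against 304 and 192 CPM in the MCAM-only cells, log2 ratios of -3.55 and -1.17, whereas HES1 was close to even, at 261 and 299.8 CPM in the junction-only cells, against 257 and 267 CPM. The collagens COL9A1 and COL2A1 had log2 ratios of junction-only over MCAM-only cells of -3.03 and -2.59 and of -1.56 and -1.96. The MADS-box factor MEF2C stood at 40.7 and 12.4 CPM in the junction-only cells, against 176 and 151 CPM, and VIM at 724 and 346 CPM in the junction-only cells, against 1205 and 937 CPM. TAGLN and the cadherin CDH2 were close to even, with log2 ratios of -0.02 and -0.14 and of -0.38 and -0.06. The duct and cartilage genes also met in the same cells: over the hormone-low gated cells under the label no DOX, without thinning, COL2A1 had a UMI in 75.2% and CFTR in 58.4%, so part of the cells held both. SOX9, which the rule used, stood at 249.8 and 321 CPM in the junction-only cells, against 259 and 280.3 CPM. At least 3 G2/M UMIs were found in 8 of 22 and 16 of 26 junction-only cells and in 47 of 76 and 14 of 24 MCAM-only cells.

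The libraries were then compared within the gated cells, which asks how the SOX9-positive cells that also met the TM4SF1 and ANXA2 limits differed between the libraries. Of 6301 genes with at least 20 CPM in 1 library, 22 (0.349%) were at least 2-fold higher and 28 (0.444%) at least 2-fold lower under the label DOX, with a median log2 ratio of 0.01. In the hormone-low gated cells the counts were 37 (0.575%) and 47 (0.73%) of 6436, and in other cells 18 (0.286%) and 4 (0.0635%) of the same 6301. The gated cells are far fewer than other cells, so counting error is larger in them. Both counts for the gated cells were larger without Scrublet-called barcodes and with the gate on thinned counts, as given in the last section. KRT8, CFTR and IFITM3 differed by less than 2-fold: KRT8 had a log2 ratio of DOX over no DOX of 0.24 (95% interval 0.18 to 0.29), CFTR of 0.44 (95% interval 0.18 to 0.69) and IFITM3 of 0.28 (95% interval 0.16 to 0.40).

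The genes highest under the label DOX included SCGB1A1, GUCA2B, OLFM4, GATM, GUCA2A, RARRES2, NMB, EXPH5 and RHOV. SPINK1, the trypsin inhibitor that acinar cells release, stood at 753 and 1449 CPM in the gated cells, a log2 ratio of 0.94 (95% interval 0.88 to 1.01), and its ratio in other cells was 0.07 (95% interval 0.06 to 0.07). After thinning SPINK1 had a UMI in 58.3% and 57.6% of other cells too. Its ratio was 1.14 (95% interval 1.00 to 1.27) within the junction-only cells and 0.43 (95% interval 0.26 to 0.60) within the MCAM-only cells. RARRES2 (chemerin) stood at 74.5 and 188 CPM, a ratio of 1.34 (95% interval 1.15 to 1.52), with a UMI in 136 of 224 and 97 of 123 cells. GATM, an enzyme of creatine synthesis, stood at 22.9 and 81.9 CPM, a ratio of 1.84 (95% interval 1.53 to 2.16). EXPH5, a RAB27 effector, and the small GTPase RHOV had ratios of 1.17 (95% interval 0.87 to 1.48) and 1.07 (95% interval 0.73 to 1.42). RARRES2, GATM, EXPH5 and RHOV were above 0 in the hormone-low cells too, from 0.85 for RHOV to 1.62 for GATM. Within the MCAM-only cells RHOV was at 0.16. These genes were named for their high ratios in all gated cells, of which 137 of 224 and 86 of 123 are hormone-low. Like directions in the hormone-low cells are therefore a description and no second reading.

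Few cells carried several of the other ratios. SCGB1A1, a secretoglobin of airway club cells, stood at 8.61 and 105 CPM but had a UMI in 10 of 224 and 18 of 123 cells. OLFM4, a glycoprotein of intestinal stem cells, stood at 26.5 and 112 CPM, with 42.7% of its UMIs under the label DOX from 1 cell. Its log2 ratio of 2.08 became 1.75 without the highest cell of each library and was 0.07 within the junction-only cells. For GUCA2A, the guanylin gene, the ratio went from 1.55 to 1.01 without the highest cells, and from 0.50 to -1.59 in the hormone-low cells. GUCA2B (uroguanylin) went from 2.15 to 1.61, and NMB (neuromedin B) from 1.25 to 1.04. NMB turned, to -0.63 with the gate on thinned counts and -1.62 within the MCAM-only cells, as did GUCA2A within the MCAM-only cells, to -1.17.

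The genes lowest under the label DOX were MT1G, SST, FABP1, HSPA1A, GAST, MT1X, HPGD, MT2A, NEFL and AC009014.3. Without Scrublet-called barcodes 4 of them turned, SST to 2.15, FABP1 to 0.50, NEFL to 1.20 and AC009014.3 to 0.47. HPGD, which breaks down prostaglandins, stood at 155 CPM (95% interval 145 to 165) and 67.7 CPM (95% interval 58.5 to 77.9), a log2 ratio of -1.19 (95% interval -1.42 to -0.97). It was -1.36 in the hormone-low cells and -0.28 in other cells. HSPA1A, a heat shock chaperone with a near-identical copy in HSPA1B, stood at 67.1 and 20.5 CPM, a ratio of -1.71 (95% interval -2.13 to -1.31), and had a like ratio in other cells, -1.76 (95% interval -1.79 to -1.74).

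Metallothioneins, zinc-binding proteins from near-identical genes, were lower as a group. At least 2-fold lower were 5 of 7 counted genes, with a median log2 ratio of -1.25, and 2 of 5 with a median of -0.96 in the hormone-low cells. Of all counted genes 0.444% and 0.73% were at least 2-fold lower, in the same order. In other cells 0 of the 7 were at least 2-fold lower, with a median of -0.38. MT2A stood at 501 and 223 CPM, a ratio of -1.17 (95% interval -1.29 to -1.04). For MT1G, 1 cell held 39.5% of its UMIs under the label no DOX, and its ratio went from -2.24 to -1.73 without the highest cells. The direction did not hold in SOX9-rich cells chosen without TM4SF1 and ANXA2, where MT1G stood at a ratio of 1.56, MT2A at 0.35 and MT1X at 0.14.

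Other low ratios differed between all gated cells and the hormone-low ones. SST, the somatostatin gene, had a ratio of -1.90 in all gated cells and of -0.09 (95% interval -0.18 to 0.00) in the hormone-low ones. FABP1, a fatty acid-binding protein of gut and liver, went from -1.76 to -0.40 (95% interval -1.40 to 0.54), and the neurofilament NEFL from -1.14 to 0.65 (95% interval -0.13 to 1.44). GAST, the gastrin gene, had ratios of -1.37 and -3.32, and 1 cell held 59.7% of its UMIs in the hormone-low cells labelled no DOX. The ratios of SST, FABP1 and NEFL thus lay near or above 0, or had an interval that held 0, without the hormone-high cells.

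Over all gated cells, no counted gene of the Notch and YAP groups had a 2-fold ratio between the libraries. Of 12 counted Notch genes 0 were at least 2-fold higher and 0 lower, with a median log2 ratio of 0.07, and HES5 had a ratio of -0.48 (95% interval -0.69 to -0.28). Its direction differed between the ends of the split chosen after seeing the data. Within the junction-only cells the HES5 ratio was 1.72 (95% interval 0.83 to 2.69), but it rested on 14 and 48 UMIs. Within the MCAM-only cells, on 381 and 74 UMIs, it was -0.66 (95% interval -1.04 to -0.30). HES5 was at 0 in most hormone-low gated cells, and these intervals do not cover differences between cells. Of 8 counted YAP and TEAD genes 0 were at least 2-fold higher and 0 lower, with a median of 0.31. In the hormone-low cells 1 of 10 was at least 2-fold higher, beside 0.575% of all counted genes. It was CRIM1, a membrane protein that binds BMPs, at 9.57 and 21.2 CPM. CRIM1 was counted through the library labelled DOX alone, just above the 20 CPM limit, so its higher level there is a description. VIM had a ratio of -0.68 (95% interval -0.77 to -0.59) in all gated cells and of -0.93 (95% interval -1.04 to -0.82) in the hormone-low ones, from 1085 CPM (95% interval 1044 to 1126) to 569 CPM (95% interval 534 to 607). It was -0.36 within the MCAM-only cells and -1.06 within the junction-only cells. MCAM had a ratio of -0.76 in the hormone-low cells.

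**Figure D5:**
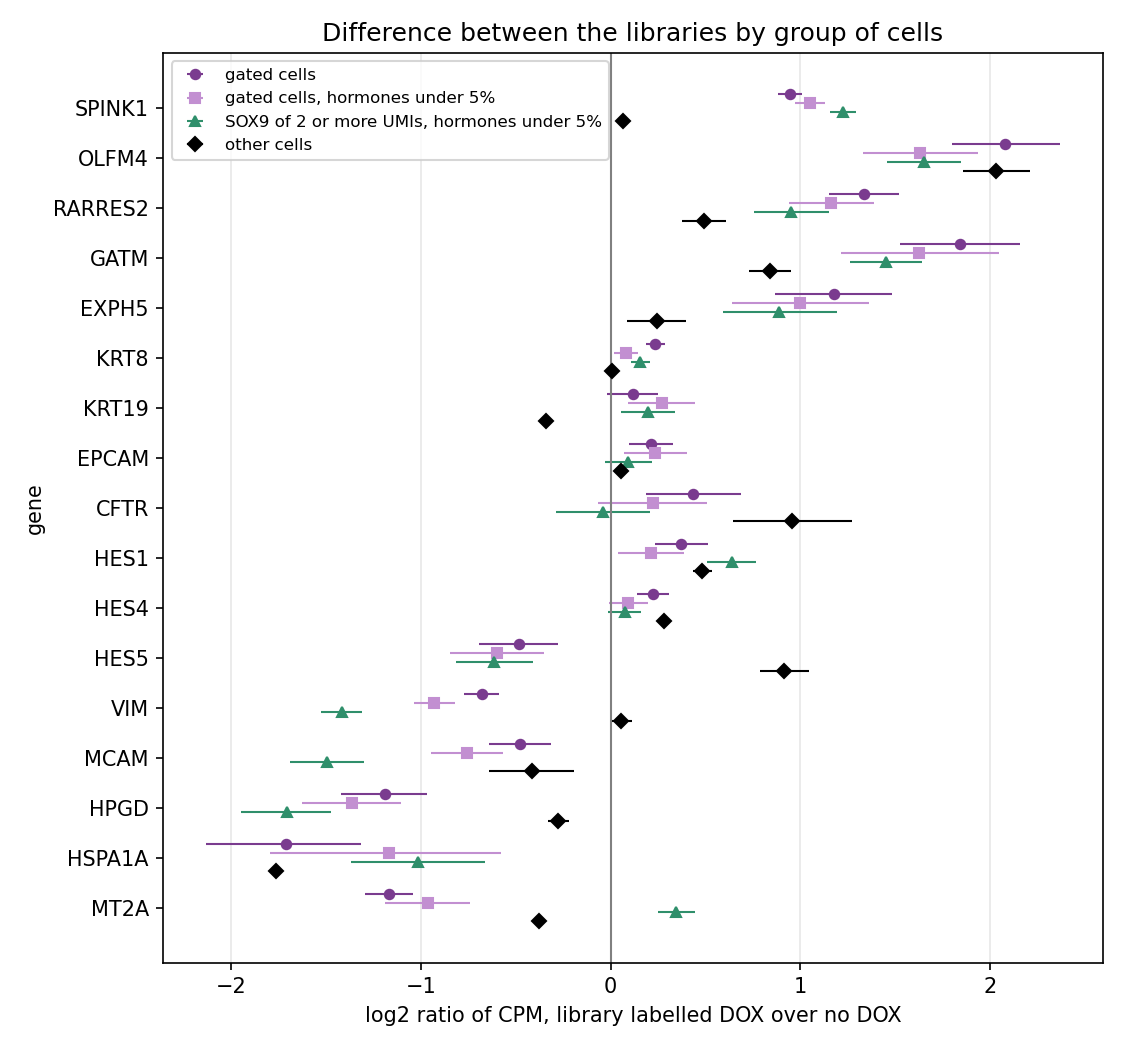
The log2 ratio of CPM, library labelled DOX over no DOX (x axis), for 17 genes (y axis) in all gated cells, the hormone-low gated cells, cells with at least 2 SOX9 UMIs and under 5% hormone UMIs chosen without TM4SF1 and ANXA2, and other cells, with 95% intervals for counting error. SPINK1, OLFM4, RARRES2, GATM and EXPH5 lie to the right of 0 in all 4 groups. VIM and MCAM lie farthest to the left in the cells chosen without TM4SF1 and ANXA2. The hormone-low cells are part of the gated cells. Of the cells chosen without TM4SF1 and ANXA2, 118 of 173 and 75 of 201 are gated cells. OLFM4, RARRES2, GATM and EXPH5 were named for their high ratios in the gated cells, so the overlapping groups are no second reading of them. Only other cells share no cells with the gated cells.

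The gate took a smaller part of the SOX9-positive cells under the label DOX. SOX9-positive cells numbered 702 (2.54%) and 692 (2.36%), and the gated cells were 31.9% and 17.8% of them, holding 51.9% and 30.4% of all SOX9 UMIs. SOX9-rich cells, with at least 2 SOX9 UMIs and under 5% hormone UMIs and no demand on TM4SF1 or ANXA2, numbered 173, or 0.625% (0.536% to 0.725%), and 201, or 0.685% (0.594% to 0.786%). Their median depths were 16408 and 15944 UMIs. Of these, 118, or 68.2% (60.7% to 75.1%), and 75, or 37.3% (30.6% to 44.4%), lay inside the gate. SOX9-rich cells were thus about as frequent in both libraries, and a smaller share of them met the TM4SF1 and ANXA2 limits under the label DOX. This choice of cells was made after seeing the data.

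In the SOX9-rich cells TM4SF1 stood at 804 and 397 CPM, a log2 ratio of -1.02 (95% interval -1.11 to -0.93), with a UMI in 76.3% and 48.8% of them. ANXA2 stood at 508 and 310.3 CPM, a ratio of -0.71 (95% interval -0.82 to -0.60). VIM and MCAM were lower too, with ratios of -1.42 (95% interval -1.53 to -1.31) and -1.49 (95% interval -1.69 to -1.30). SPINK1 had a ratio of 1.22 (95% interval 1.16 to 1.29) and HES1 of 0.64 (95% interval 0.51 to 0.77). The epithelial genes KRT8 and EPCAM changed less, with ratios of 0.16 (95% interval 0.10 to 0.21) and 0.09 (95% interval -0.03 to 0.22).

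The 55 and 126 SOX9-rich cells outside the gate had fewer transcripts of VIM, MCAM and CCND1 than the hormone-low gated cells. VIM stood at 102 and 84.2 CPM in them, MCAM at 49.2 and 12.7 CPM and CCND1 at 189.5 and 191 CPM, all below the gated cells. SERPINA1 stood at 3403 and 3684 CPM against 2937 and 3540.5 CPM. CHGA stood at 12695 and 6587 CPM, closer to other cells than the hormone-low gated cells were. At least 3 G2/M UMIs were found in 20 of 53 and 48 of 126 of those with at least 5000 UMIs.

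At the edges of the gate, 37 and 18 gated cells had exactly 1 SOX9 UMI, 19 and 9 exactly 3 of ANXA2, and 1 in each library exactly 1 of TM4SF1. Just outside lay 25 and 24 SOX9- and TM4SF1-positive cells with 1 or 2 ANXA2 UMIs, 12 and 29 with none, and 5 and 14 cells with SOX9 and at least 3 ANXA2 UMIs but no TM4SF1. A further 28 and 15 cells met the TM4SF1 and ANXA2 limits without a SOX9 UMI. KRT18 stood at 713 and 1625 CPM in the cells with 3 ANXA2 UMIs and at 872 and 1412 CPM in those with 1 or 2. KRT18 thus lay close on both sides of the ANXA2 limit. The cells without SOX9 had KRT18 at 1617 and 1826 CPM and MCAM at 185 and 157 CPM.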

How the data were processed

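Levels were compared without a test between 2 single-cell libraries of eBCs, 1 per condition, grouped by their sample labels. The values deposited by the authors are raw counts of UMIs for 33694 genes in each barcode. The file headers name Cell Ranger 3.0.2, and the submitters' processing notes list GRCh38, Cell Ranger 3.0, kallisto, bustools 0.40.0, Scanpy and Seurat. The gated cells and the 32 gene lists were chosen with earlier results of these data known. UMIs were summed over cells and scaled to 1000000 (CPM), with exact Poisson, conditional binomial and Clopper-Pearson 95% intervals (scipy 1.17.1), which cover counting error only and are too narrow where few cells hold a gene's UMIs. In ratios a count of 0 was set to 3 UMIs. Thinning drew 5000 UMIs per cell. Scrublet was run per library on barcodes with at least 1000 UMIs (scanpy 1.11.5). On simulated counts of the DOX over no DOX comparison in gated cells, the direction was right for all 200 changed genes of 5969, and 95.8% of the intervals covered the simulated ratio. This checks the calculation and not the spread between libraries, which 1 library per condition cannot show. Besides genes of the lists, those with the 12 highest and 8 lowest ratios of gated over other cells and the 10 highest and 10 lowest of DOX over no DOX were named, from genes with at least 50 CPM; some of these genes are not reported here. Positions come from GENCODE 44 and promoters from RefSeq. Python 3.11.15, numpy 2.4.6, pandas 2.3.3 and matplotlib 3.10.9 were used.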

Additional observations from a re-analysis of the deposited data

Results flagged for a closer look

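Of the genes named or listed, 3 had a ratio of DOX over no DOX of at least 1.5-fold in opposite directions in the gated cells and in other cells, with both intervals clear of 0. The difference between the groups of cells was not tested, since there was 1 library per condition. CTGF, a target of YAP and TEAD, had log2 ratios of 0.79 (95% interval 0.46 to 1.12) in the gated cells and -0.80 (95% interval -0.93 to -0.66) in other cells, at 28.9 and 50 against 2.28 and 1.31 CPM. In the hormone-low gated cells its ratio was 0.79. CLDN18, a claudin of stomach and lung epithelium, had ratios of 1.06 (95% interval 0.68 to 1.44) and -0.76 (95% interval -0.80 to -0.72), and of 1.80 in the hormone-low cells. PPY, the pancreatic polypeptide gene, had ratios of -2.40 (95% interval -3.03 to -1.83) and 0.98 (95% interval 0.95 to 1.00). In the hormone-low gated cells, where PPY stood at 2.79 and 11.5 CPM, its ratio was 2.04, so its direction differed between all gated cells and the hormone-low ones.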

How the results depend on the processing

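With 1 library per condition nothing was tested, and values were compared only by direction and size. In no alternative did SOX9 in the cells chosen without it, or the order of the 2 gate shares, turn, except that SOX9-rich cells chosen without TM4SF1 and ANXA2 (added after seeing the data) gave shares of 0.625% and 0.685% and counts of 48 genes higher and 64 lower under the label DOX. Without Scrublet-called barcodes the gate shares were 0.556% and 0.368%, the log2 ratio of SOX9 0.22, the genes higher and lower than other cells 1350 and 1011, those higher and lower under DOX 70 and 60, cells with at least 3 G2/M UMIs 57.3% under no DOX, and hormone-high cells 2.70% and 8.97%. Of the named genes, SST (2.15), FABP1 (0.50), NEFL (1.20) and AC009014.3 (0.47) then turned. A gate of at least 2 SOX9, 2 TM4SF1 and 5 ANXA2 UMIs took 0.564% and 0.307%. The gate on thinned counts took 0.222% and 0.136%, with 1232 and 775 genes against other cells, 161 and 157 under DOX, 11.9% and 5.13% hormone-high cells, and NMB turned to -0.63. Without hormone-high cells SOX9 stood at 0.18, the 4 counts, in the order just given, at 1246, 714, 37 and 47, and NEFL at 0.65. The mean of the cells' own CPM gave 0.24 for SOX9 and 624 genes lower than other cells, and CPM without hormone and mitochondrially encoded genes 541 lower than other cells and 48 lower under DOX. A minimum of 10 CPM gave 64 and 64 genes under DOX, and one of 50 CPM 354 and 127 against other cells and 11 and 12 under DOX. A mitochondrial limit of 10% moved the gate share under DOX to 0.515%. Cells with at least 1 G2/M UMI were 67.3% and 77.2%, those with at least 3 without thinning 67.9% and 77.2%, and with hormones at 10% of UMIs 26.8% and 16.3% were hormone-high. In the added subsets, SOX9-rich cells turned MT1G (1.56), FABP1 (0.095), MT1X (0.14), MT2A (0.35) and NEFL (0.028), and MCAM-only cells GUCA2A (-1.17), NMB (-1.62) and FABP1 (0.22). Under no DOX at least 3 G2/M UMIs were found in 36.4% of junction-only and 61.8% of MCAM-only cells. Of the values of single genes under the alternatives not added later, 320 stayed within their counting interval, 153 moved and 6 turned. The causes were not tested. No paired analysis was possible because each condition had 1 library and no test was made. Counts of genes past 2-fold depend on depth, since the gated cells hold few UMIs, and a gene at low CPM in them can pass by counting error.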
